A study of Mus musculus with 6 samples.

Results

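The prostaglandin and leukotriene pathway was described here by 10 genes in bitten ear skin of mice that had or lacked adiponectin, which is a circulating hormone of adipocytes. They were the rows of the expression table whose symbols name the 2 cyclooxygenases (*Ptgs1* and *Ptgs2*), 3 terminal synthases (*Ptges*, *Ptgds* and *Ptgis*), the breakdown enzyme *Hpgd*, 2 prostaglandin E receptors (*Ptger3* and *Ptger4*) and the first 2 components of leukotriene synthesis (*Alox5* and *Alox5ap*). All 10 were among the 15667 genes of the table, and the rule used no measured value. The animals were female mice of the B6;129-Adipoq tm1Chan/J line, aged 7 to 8 weeks, which carried either a constitutive null allele on both copies of *Adipoq* (KO, n = 3) or the intact gene (WT littermates, n = 3). Both groups had been fed on by 10 *Ixodes scapularis* ticks per mouse for 48 h, and each library came from 1 punch of 3.5 mm taken at the bite site on the ear. Unbitten skin was not analysed here, so every value below is from bitten skin.

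Prostanoids and leukotrienes are short-lived lipid mediators made from arachidonic acid, which phospholipases A release from membranes. The cyclooxygenases turn it into prostaglandin H, from which each terminal synthase makes a different prostanoid, and the prostanoids act through receptors on nearby cells to set vascular tone, pain, fever and leukocyte entry. The 5-lipoxygenase *Alox5* works with its membrane partner *Alox5ap* in leukocytes to make leukotrienes, which attract neutrophils and make vessels leak. *Ptgs1* is present in many resting tissues, whereas *Ptgs2* and *Ptges* are the enzymes known to be induced in inflammation. RNA was measured and the lipids were not.

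Read depth, inferred from the deposited counts scaled to a fixed library total (CPM), lay between 3403773 and 6591320 reads per library, so that 3 reads were worth 0.455 to 0.881 CPM. *Adipoq* stood at 30.5 to 63.7 CPM in the WT libraries and at 0, 0.560 and 0 CPM in KO 1, KO 2 and KO 3 and so matched all 6 labels. Of 10 keratinocyte markers 9 were in the table and at 0 in no library, led by *Krt10* at 8608 to 15152 CPM. Libraries differed within a group in the marker RNA of other cell types. The summed CPM of 20 hair follicle markers was 14.04, 21.0 and 24493 in WT 1, WT 2 and WT 3 and 1932, 9712 and 1007 in KO 1, KO 2 and KO 3, and 13 of the 20 were at 0 in WT 1 and 9 in WT 2. In such whole-tissue samples, fewer cells of a type and less RNA per cell cannot be told apart.

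No pathway gene passed limma's test of KO against WT skin on log2(CPM + 0.5), even at an unadjusted p below 0.05. Of the 10 genes, 9 reached the mean of 1 CPM needed for testing, 4 with a lower and 5 with a higher value in KO, and 0 of the 9 had an unadjusted p below 0.05, beside 2.88% of all 14306 genes tested (1.82% lower and 1.06% higher). After Benjamini-Hochberg adjustment with limma over those 14306 genes, 0 of the 9 passed, beside 0.0140% of all genes, and each had an adjusted p of 0.998. The median log2 fold change of the 9 was 0.02, beside -0.03 over all genes tested. The 3 KO values lay wholly to one side of the 3 WT values in 1 of the 9, *Ptger3*, which was lower, beside 4.89% of all genes for that direction, and 0 of the 9 lay wholly above, beside 2.95%. Where a p missed the threshold, the interval of the difference is given with it, since it does not show that the groups were alike. Variation within groups was uneven among the genes. *Ptgs2* and *Ptges* varied more between libraries of the same genotype than 98.8% and 93.6% of the genes tested. With 1 punch per mouse, variation between mice and between punches cannot be told apart. The median within-group standard deviation of the 9 genes was 0.32 on the log2 scale, beside 0.25 for all genes.

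**Figure D1:**
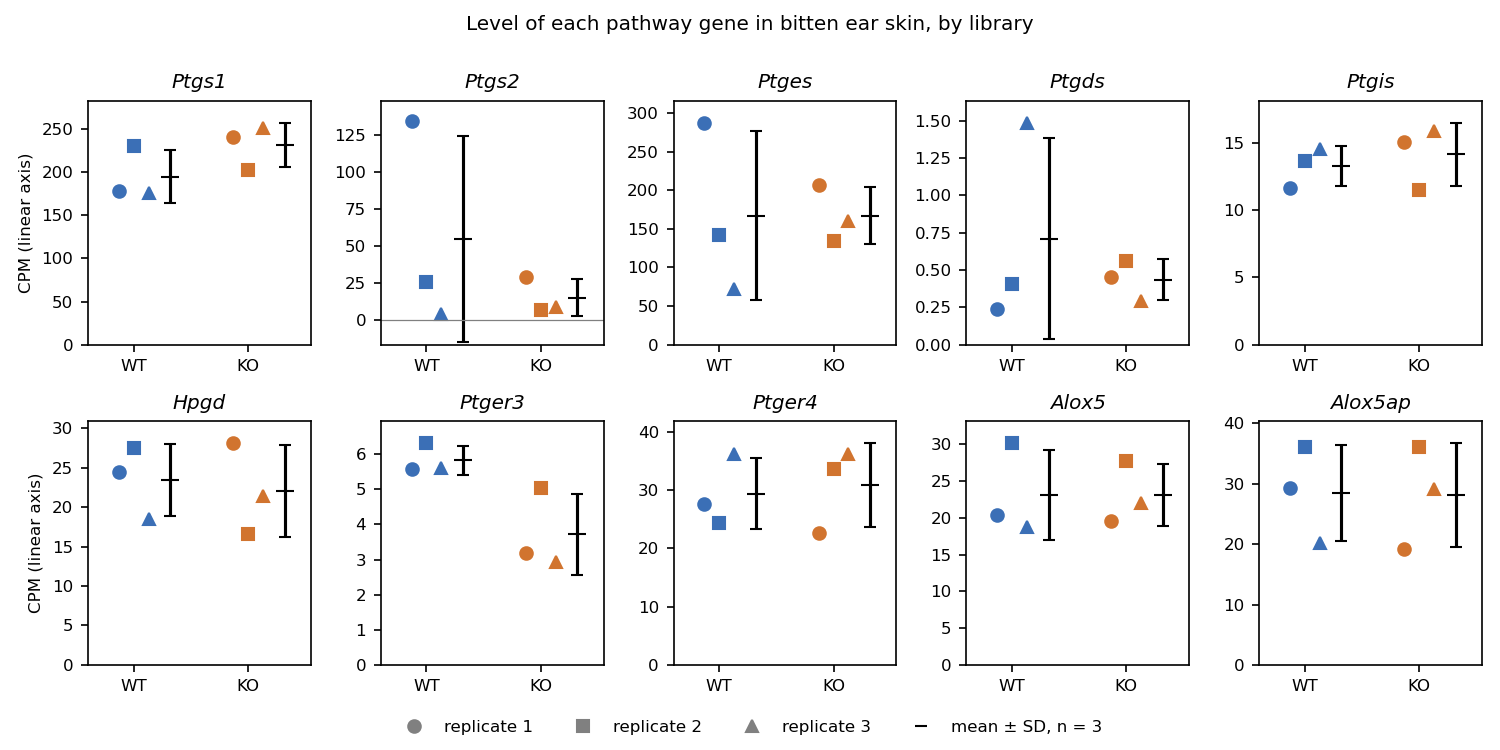
Level of each of the 10 genes in CPM on a linear axis, with each point 1 library, WT in blue and KO in orange, and black bars for the mean ± SD of 3 libraries. KO and WT points overlap in all panels but that of Ptger3, where the KO libraries lie at 2.94 to 5.04 CPM and the WT libraries at 5.57 to 6.31 CPM, and the Ptgs2 panel is set by WT 1 at 134 CPM.

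The sequences upstream of 3 genes are shown first, because *Ptgs2* and *Ptges* followed the same order of libraries closely while *Ptgs1*, the other cyclooxygenase, did not. RefSeq (GRCm38.p6, the build of the deposited positions) gave a promoter for 8 of the 10 genes. *Ptgis* and *Alox5ap* had none in that table. Each window runs 5′ to 3′ on the strand of the gene from 250 bases before the start to 30 bases after it. Letters in capitals match one of 6 motifs searched on both strands, namely the TATA box TATAAA, the E-box CACGTG, the cyclic AMP response core ACGTCA, the C/EBP motif TTGCNNAA, the GC box GGGCGG and the AP-1 motif TGANTCA.
Ptgs2, chr1:150099781-150100060, plus strand: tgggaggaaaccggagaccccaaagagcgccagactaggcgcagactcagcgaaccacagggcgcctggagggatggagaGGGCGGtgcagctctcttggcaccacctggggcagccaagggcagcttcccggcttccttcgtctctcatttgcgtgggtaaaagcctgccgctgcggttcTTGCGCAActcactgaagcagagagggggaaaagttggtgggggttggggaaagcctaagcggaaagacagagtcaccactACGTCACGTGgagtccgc
Ptges, chr2:30903268-30903547, minus strand: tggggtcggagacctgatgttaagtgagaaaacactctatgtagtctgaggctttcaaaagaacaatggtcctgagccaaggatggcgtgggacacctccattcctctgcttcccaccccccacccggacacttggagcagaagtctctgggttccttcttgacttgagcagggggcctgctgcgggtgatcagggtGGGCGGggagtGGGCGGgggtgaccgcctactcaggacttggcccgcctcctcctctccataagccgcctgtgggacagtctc
Ptgs1, chr2:36230176-36230455, plus strand: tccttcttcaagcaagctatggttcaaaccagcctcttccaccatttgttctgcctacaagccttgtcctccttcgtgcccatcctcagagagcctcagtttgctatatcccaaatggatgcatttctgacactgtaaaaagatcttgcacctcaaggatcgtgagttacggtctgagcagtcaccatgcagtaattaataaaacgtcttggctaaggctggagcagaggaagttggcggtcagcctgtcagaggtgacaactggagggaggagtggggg
The *Ptgs2* window held a GC box from 170 to 165 bases before the start and a C/EBP motif from 69 to 62 bases before it. A response core from 13 to 18 bases after the *Ptgs2* start overlapped an E-box from 17 to 22 bases after it. *Ptges* held 2 GC boxes, from 53 to 48 and from 42 to 37 bases before its start, and the *Ptgs1* window held none of the 6 motifs. Among 32851 promoter windows of the same length, the GC box was in 34.7%, the C/EBP motif in 10.4%, the response core in 7.26%, the E-box in 6.79%, the TATA box in 13.1% and the AP-1 motif in 7.46%. A match of letters describes the sequence and shows no binding.

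The cyclooxygenases come first in the pathway. *Ptgs1* (chromosome 2, 36230426 to 36252271, plus strand), which encodes the constitutive enzyme, stood at 178, 231 and 176 CPM in WT 1, WT 2 and WT 3 and at 240.5, 202 and 251 CPM in KO 1, KO 2 and KO 3. The 2 highest libraries were KO, but KO 2 lay below WT 2, so the groups overlapped. The WT mean was 195 ± 31.1 CPM and the KO mean 231 ± 25.6 CPM (SD, n = 3 each). The limma log2 fold change of *Ptgs1* was 0.25 (SE 0.14, 95% interval -0.07 to 0.58, unadjusted p = 0.112, adjusted p = 0.998). The exact two-sided permutation test of *Ptgs1* gave p = 0.2, where 3 against 3 libraries cannot give less than 0.1. Its highest library was 1.42-fold its lowest, the steadiest level among the genes of the pathway except *Ptgis*.

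*Ptgs2* (chromosome 1, 150100031 to 150108234, plus strand), the inducible cyclooxygenase and the target of many anti-inflammatory drugs, stood at 134, 25.6 and 4.45 CPM in WT 1, WT 2 and WT 3. Its values in KO 1, KO 2 and KO 3 were 29.4, 7.01 and 9.11 CPM. Both the highest and the lowest of the 6 libraries were WT, and all KO values lay between them. The spread exceeded counting error, since WT 1 held 555 reads of *Ptgs2* and WT 3 held 27, with exact 95% Poisson intervals of 123 to 146 CPM and 2.93 to 6.48 CPM that cover counting error only. Within WT the highest value was 30.2-fold the lowest, and within KO it was 4.20-fold the lowest. The WT mean of 54.8 ± 69.7 CPM therefore rested on WT 1, beside a KO mean of 15.2 ± 12.4 CPM. The limma log2 fold change of *Ptgs2* was -1.005 (SE 1.09, 95% interval -3.52 to 1.51, unadjusted p = 0.382, adjusted p = 0.998), and the exact permutation p was 0.7. It was 0.18 without WT 1 and -2.20 without WT 3, where limma gave an unadjusted p of 0.0146 and an adjusted p of 0.738. Beside the hair follicle score, added to the fit as a covariate, the log2 fold change of *Ptgs2* was 0.03, and with the neutrophil score it was -0.66 (limma, unadjusted p = 0.0461, adjusted p = 0.975).

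**Figure D2:**
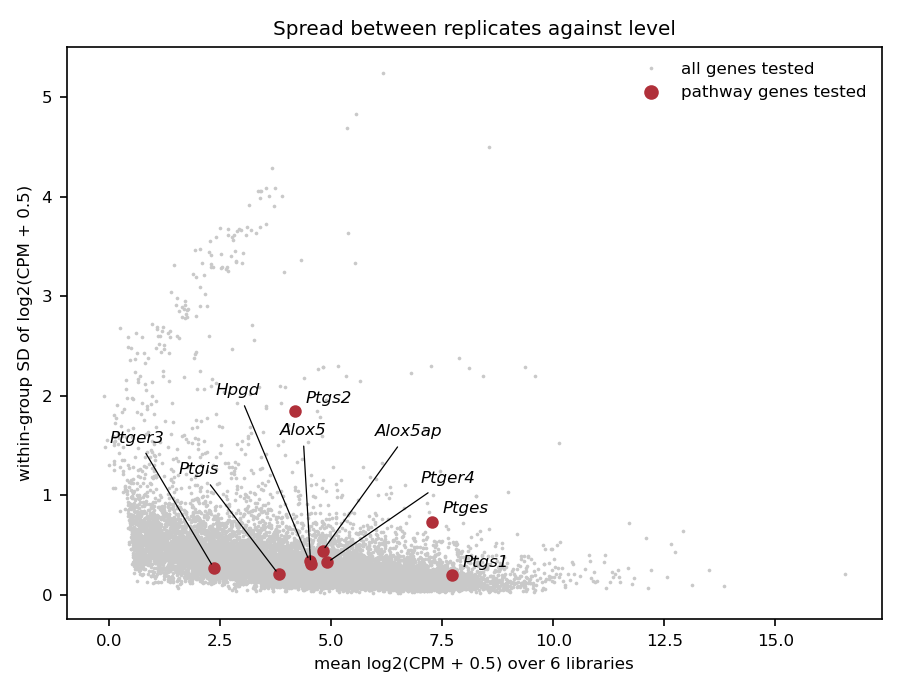
Standard deviation of log2(CPM + 0.5) within groups against the mean of log2(CPM + 0.5) over 6 libraries, with each grey point 1 of the 14306 genes tested and each red point 1 of the 9 pathway genes tested. Ptgs2 (1.85) and Ptges (0.73) lie above the mass of genes of like level, and the other 7 lie within it at 0.19 to 0.44.

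The terminal synthases take the product of either cyclooxygenase. *Ptges* (chromosome 2, 30889471 to 30903297, minus strand) encodes the inducible microsomal prostaglandin E synthase, which is known to couple to *Ptgs2*. It stood at 287, 142 and 72.7 CPM in WT 1, WT 2 and WT 3 and at 207, 135 and 160.1 CPM in KO 1, KO 2 and KO 3. As with *Ptgs2*, WT 1 was the highest library, KO 1 the second and WT 3 the lowest, and the KO values lay inside the WT range. The WT mean was 167 ± 109 CPM and the KO mean 167 ± 36.8 CPM (SD, n = 3 each). The limma log2 fold change of *Ptges* was 0.20 (SE 0.44, 95% interval -0.81 to 1.20, unadjusted p = 0.663, adjusted p = 0.998), and the exact permutation p was 0.8. Without WT 3 it was -0.29, and without WT 1 it was 0.70. Both covariates gave smaller unadjusted p-values for *Ptges*, with a log2 fold change of 0.33 beside the neutrophil score (limma, unadjusted p = 0.0199, adjusted p = 0.975) and 0.62 beside the hair follicle score (limma, unadjusted p = 0.0341, adjusted p = 0.758).

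*Ptgis* (chromosome 2, 167203194 to 167240605, minus strand) makes prostacyclin, which widens vessels and keeps platelets from clumping. It stood at 11.6, 13.6 and 14.5 CPM in WT 1, WT 2 and WT 3 and at 15.0, 11.5 and 15.9 CPM in KO 1, KO 2 and KO 3. The lowest and the highest library were both KO, and the values ran over a narrow range, the highest 1.38-fold the lowest. Group means were 13.3 ± 1.48 CPM (WT) and 14.1 ± 2.32 CPM (KO), and the limma log2 fold change of *Ptgis* was 0.08 (SE 0.20, 95% interval -0.38 to 0.54, unadjusted p = 0.691, adjusted p = 0.998, exact permutation p = 0.6).

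*Ptgds* (chromosome 2, 25466712 to 25469749, minus strand), which encodes the lipocalin-type prostaglandin D synthase, was close to the limit of detection. It stood at 0.242, 0.407 and 1.48 CPM in WT 1, WT 2 and WT 3, or 1, 2 and 9 reads, and at 0.455, 0.560 and 0.294 CPM in KO 1, KO 2 and KO 3, or 3, 2 and 1 reads. Only WT 3 exceeded 3 reads. The mean over the 6 libraries, 0.574 CPM, left *Ptgds* out of the test. The WT libraries together gave 12 reads and the KO libraries 6, which is 0.557 per unit of depth, with an exact 95% interval of 0.172 to 1.60 for counting error only. Without WT 3 there were 3 reads in WT, and the ratio was 1.33 (0.285 to 8.24). A difference in *Ptgds* was not detectable at this depth.

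*Hpgd* (chromosome 8, 56294552 to 56321046, plus strand) encodes the 15-hydroxyprostaglandin dehydrogenase that starts the breakdown of prostaglandins. It stood at 24.4, 27.5 and 18.5 CPM in WT 1, WT 2 and WT 3 and at 28.1, 16.5 and 21.4 CPM in KO 1, KO 2 and KO 3. Its highest and lowest libraries were KO 1 and KO 2, so that the WT values lay inside the KO range. The WT mean was 23.5 ± 4.58 CPM and the KO mean 22.0 ± 5.79 CPM, and the limma log2 fold change of *Hpgd* was -0.10 (SE 0.23, 95% interval -0.65 to 0.44, unadjusted p = 0.673, adjusted p = 0.998, exact permutation p = 0.8).

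Ratios of CPM between genes of one library do not depend on its total, though they do depend on gene length, so they are set side by side only between libraries. The ratio of *Ptgs2* to *Ptgs1* was 0.756, 0.111 and 0.0253 in WT 1, WT 2 and WT 3 and 0.122, 0.0346 and 0.0363 in KO 1, KO 2 and KO 3. The libraries stood in the same order in this ratio as in *Ptgs2* itself, with WT 1 far above the other 5. The ratio of *Ptges* to *Hpgd*, a synthesis enzyme to a breakdown enzyme, was 11.7, 5.16 and 3.94 in WT 1, WT 2 and WT 3 and 7.38, 8.14 and 7.47 in KO 1, KO 2 and KO 3. The KO libraries differed little from each other in this ratio (7.66 ± 0.414), while the WT libraries lay on both sides of them (6.94 ± 4.19).

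The receptors for prostaglandin E gave the pathway gene with the smallest p. *Ptger3* (chromosome 3, 157566876 to 157644754, plus strand) encodes the EP3 receptor, which lowers cyclic AMP and takes part in fever and in the restraint of fat breakdown. It stood at 5.57, 6.31 and 5.61 CPM in WT 1, WT 2 and WT 3 and at 3.19, 5.04 and 2.94 CPM in KO 1, KO 2 and KO 3. No KO value reached the lowest WT value, and KO 2 came nearest to it. Group means were 5.83 ± 0.416 CPM (WT) and 3.72 ± 1.15 CPM (KO) (SD, n = 3 each). The limma log2 fold change of *Ptger3* was -0.61 (SE 0.28, 95% interval -1.27 to 0.04, unadjusted p = 0.0622, adjusted p = 0.998), which did not pass, and the exact permutation p was 0.1, the smallest that this design allows. The level was low, with 23, 31 and 34 reads in WT 1, WT 2 and WT 3 and 21, 18 and 10 reads in KO 1, KO 2 and KO 3. Summed over groups these were 88 and 49 reads, a ratio per depth of 0.620 with an exact 95% interval of 0.428 to 0.890 that covers counting error only and not the spread between mice. The value was lower in KO under all alternatives that kept *Ptger3* in the fit, from -0.83 to -0.47. Without KO 2 the log2 fold change was -0.83 (limma, unadjusted p = 0.0234, adjusted p = 0.998). Without any 1 of the other 5 libraries limma gave *Ptger3* an unadjusted p of 0.0996 to 0.160, and without KO 3 its log2 fold change was -0.48.

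Adipocyte markers were low in the same 2 KO libraries as *Ptger3*. The summed CPM of 8 such markers, with the deleted *Adipoq* left out, was 562, 818 and 836 in WT 1, WT 2 and WT 3 and 344, 842 and 403 in KO 1, KO 2 and KO 3, and the mean of each of the 8 was lower in KO. KO 1 and KO 3 were the lowest libraries here as for *Ptger3*, whereas KO 2 was the highest in this sum. Over the 6 libraries the listed gene second in likeness to *Ptger3* was *Pparg*, a transcription factor of fat and sebaceous cells that was taken from the sebaceous gland list (Pearson r = 0.950), at 13.6, 13.6 and 15.7 CPM in WT 1, WT 2 and WT 3 and 5.92, 11.8 and 7.05 CPM in KO 1, KO 2 and KO 3. The 7 sebaceous gland markers, none of them at 0 in any library, summed to 5089, 4545 and 3470 CPM in WT 1, WT 2 and WT 3 and to 3185, 3696 and 2565 CPM in KO 1, KO 2 and KO 3. KO 3 and KO 1 were the lowest libraries in this sum too. The part of fat and sebaceous cells in the *Ptger3* values was not tested.

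*Ptger4* (chromosome 15, 5233399 to 5244187, minus strand) encodes the EP4 receptor, which raises cyclic AMP and is carried by many immune and vascular cells. It stood at 27.6, 24.4 and 36.1 CPM in WT 1, WT 2 and WT 3 and at 22.6, 33.6 and 36.1 CPM in KO 1, KO 2 and KO 3. The highest libraries, WT 3 and KO 3, had nearly the same value, and the groups overlapped. The WT mean was 29.4 ± 6.05 CPM and the KO mean 30.8 ± 7.20 CPM, and the limma log2 fold change of *Ptger4* was 0.06 (SE 0.22, 95% interval -0.46 to 0.57, unadjusted p = 0.803, adjusted p = 0.998, exact permutation p = 0.9). The difference between the changes of *Ptger3* and *Ptger4* was not tested.

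**Figure D3:**
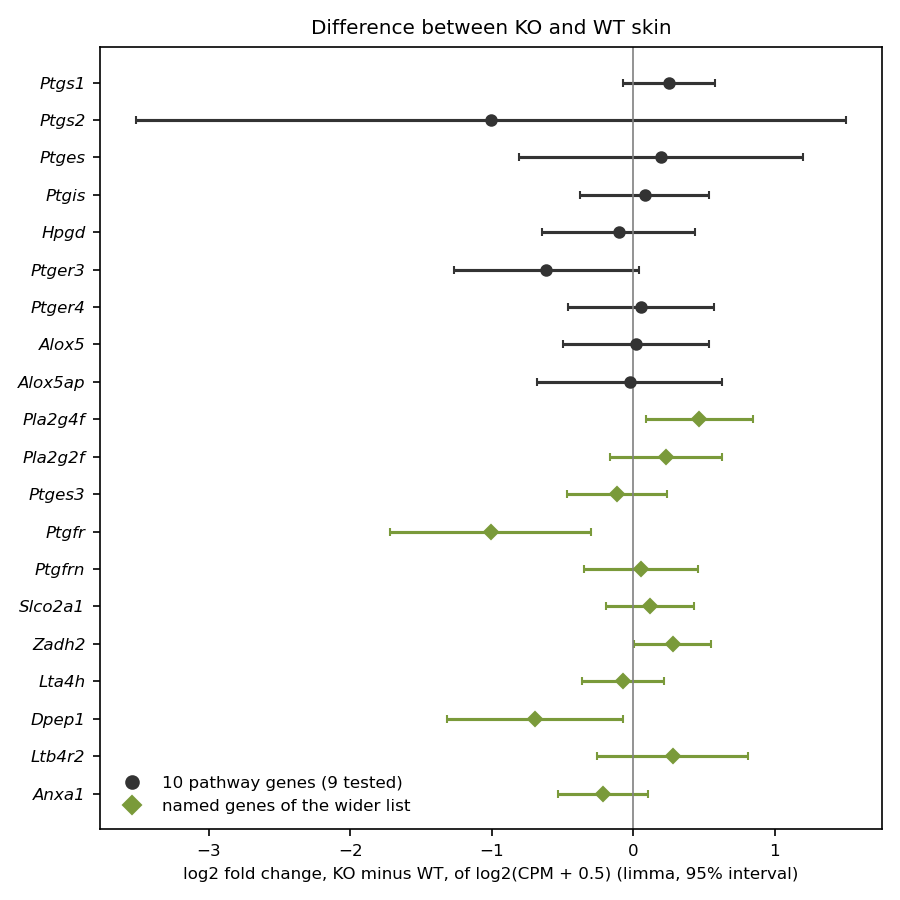
Difference between KO and WT on the log2(CPM + 0.5) scale, with each point the limma estimate and each bar its 95% interval, circles for the 9 tested pathway genes and diamonds for 11 genes of the wider eicosanoid list. All 9 pathway intervals include 0, that of Ptgs2 being the widest at -3.52 to 1.51, and that of Ptgfr among the diamonds runs from -1.72 to -0.30.

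The leukotriene branch starts with *Alox5* (chromosome 6, 116410071 to 116461178, minus strand). It stood at 20.3, 30.1 and 18.8 CPM in WT 1, WT 2 and WT 3 and at 19.6, 27.7 and 22.0 CPM in KO 1, KO 2 and KO 3. Replicate 2 was the highest library of both groups, and the groups covered nearly the same range. Group means were 23.1 ± 6.14 CPM (WT) and 23.1 ± 4.19 CPM (KO), and the limma log2 fold change of *Alox5* was 0.02 (SE 0.22, 95% interval -0.50 to 0.53, unadjusted p = 0.937, adjusted p = 0.998, exact permutation p = 1).

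*Alox5ap* (chromosome 5, 149265004 to 149288153, plus strand) encodes the protein that hands arachidonic acid to *Alox5*. It stood at 29.3, 36.0 and 20.1 CPM in WT 1, WT 2 and WT 3 and at 19.1, 36.1 and 29.1 CPM in KO 1, KO 2 and KO 3. The highest libraries were again KO 2 and WT 2, and the groups overlapped. The WT mean was 28.5 ± 7.98 CPM and the KO mean 28.1 ± 8.56 CPM, and the limma log2 fold change of *Alox5ap* was -0.03 (SE 0.28, 95% interval -0.68 to 0.63, unadjusted p = 0.931, adjusted p = 0.998, exact permutation p = 0.8). The ratio of *Alox5ap* to *Alox5* ran from 1.07 to 1.44 in WT and from 0.977 to 1.32 in KO.

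Levels of different genes were compared per kilobase of exon, with lengths from the GENCODE M21 annotation (GRCm38). The mean over the 6 libraries was 74.3 CPM per kilobase for *Ptgs1*, 45.8 for *Ptges*, 21.0 for *Alox5ap*, 13.5 for *Hpgd*, 9.04 for *Ptger4*, 8.19 for *Alox5*, 7.86 for *Ptgs2*, 5.98 for *Ptgis*, 1.47 for *Ptger3* and 0.612 for *Ptgds*. Each neighbour in this order overlapped the next over the 6 libraries except *Ptgis* and *Ptger3*. *Ptgs2* moved along the order more than any other of the 10, at 30.2 CPM per kilobase in its highest library and 0.9996 in its lowest. The constitutive cyclooxygenase was therefore the more abundant per length in every library, since the lowest *Ptgs1* value was 61.4 CPM per kilobase.

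Within these tissue punches the 10 genes did not vary as one group. *Ptgs2* and *Ptges* followed the neutrophil markers. Of 149 cell type markers and eicosanoid genes that averaged 5 CPM or more, the one most like *Ptgs2* over the 6 libraries was *S100a8*, a calcium-binding protein abundant in neutrophils, with a Pearson r of 0.977 and a Spearman rho of 0.943. It stood at 143, 49.4 and 5.11 CPM in WT 1, WT 2 and WT 3 and at 41.0, 14.3 and 15.0 CPM in KO 1, KO 2 and KO 3. The second was *Pla2g4e*, a cytosolic phospholipase of the same pathway, with an r of 0.959. The gene most like *Ptges* was *Csf3r*, the receptor for the growth factor of neutrophils, with an r of 0.994 and a rho of 1, followed by the chemokine receptor *Cxcr2* with an r of 0.970. *Csf3r* stood at 28.3, 6.92 and 1.32 CPM in WT 1, WT 2 and WT 3 and at 11.5, 5.04 and 8.23 CPM in KO 1, KO 2 and KO 3. The points share a library and its depth, 6 are few, and the genes were the best of 149, so these are descriptions with no test.

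The whole neutrophil list put the WT libraries in the same order. Of its 12 markers 8 were in the table, and *Ly6g*, *Ngp*, *Camp* and *Ltf* were not used here. Their summed CPM was 605, 239 and 71.6 in WT 1, WT 2 and WT 3 and 233, 134 and 132 in KO 1, KO 2 and KO 3, so that it ran from 71.6 to 605 in WT and from 132 to 233 in KO. All 8 were highest in WT 1 among the WT libraries, and 1 of the 8 was at 0 in KO 3. *Ptgs2* and *Ptges* thus had their highest WT value in the WT punch with the most neutrophil marker RNA and their lowest in that with the least. Among the KO libraries KO 1 was highest in the neutrophil sum, *Ptgs2* and *Ptges*. KO 3 lay above KO 2 in *Ptgs2* and *Ptges* but not in the neutrophil sum, where the 2 were close. The search for like genes ranked by signed r, so genes of opposite pattern could not be named. Among the WT libraries the 20 hair follicle markers ran in the reverse order. They summed to 14.04, 21.0 and 24493 CPM in WT 1, WT 2 and WT 3. In KO the order was not reversed, at 1932, 9712 and 1007 CPM in KO 1, KO 2 and KO 3. The parts of neutrophils and hair follicles in the *Ptgs2* and *Ptges* values were not tested.

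*Alox5* and *Alox5ap* were highest in the same 2 libraries as macrophage and mast cell markers. The genes most like *Alox5* were *Csf1r*, the growth factor receptor of macrophages, and the lysosomal marker *Cd68*, with r of 0.955 and 0.947. *Alox5ap* was most like *Myh11* of smooth muscle (r = 0.967) and the complement gene *C1qa* of macrophages (r = 0.960, rho = 1). The summed CPM of 10 macrophage markers, none of them at 0 in any library, was 684, 951 and 479 in WT 1, WT 2 and WT 3 and 454, 902 and 548 in KO 1, KO 2 and KO 3. Its 2 highest libraries, WT 2 and KO 2, were those highest in both *Alox5* and *Alox5ap*, and its ranges in WT and KO overlapped. Mast cells, which also carry this branch, gave a summed CPM for 10 markers of 166, 184 and 153 in WT 1, WT 2 and WT 3 and 101, 193 and 151 in KO 1, KO 2 and KO 3, with 1 marker at 0 in KO 3. KO 2 and WT 2 were the highest libraries in this sum as well. The part of these cells was not tested.

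**Figure D4:**
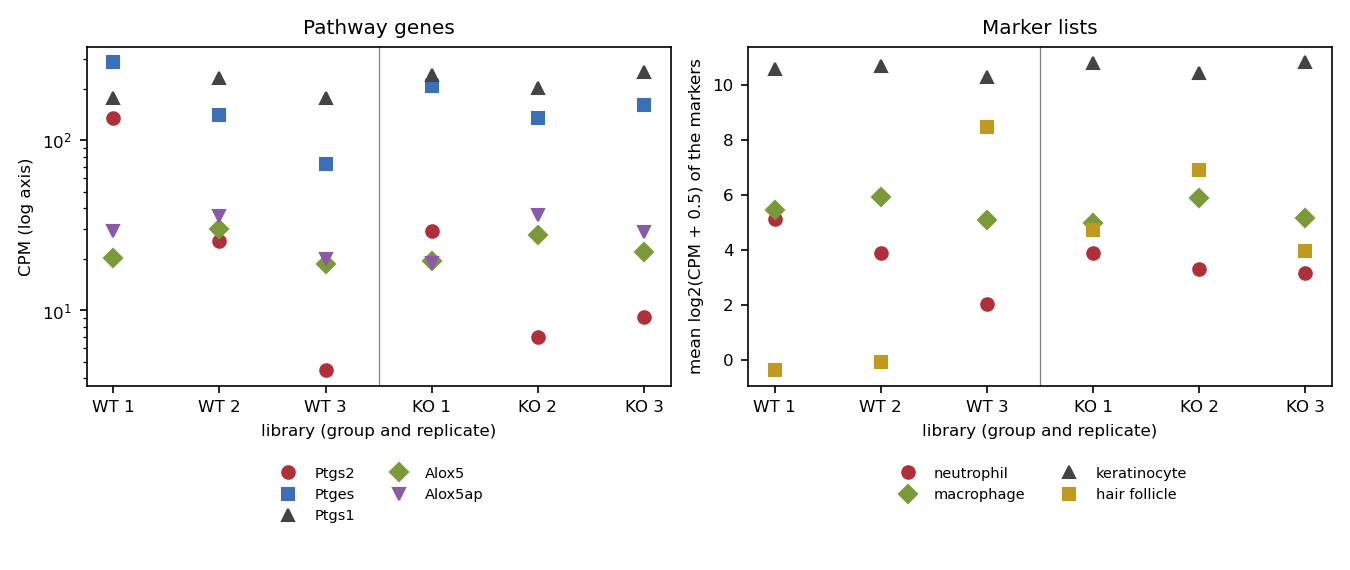
Left, CPM of 5 pathway genes in each library on a log axis, and right, the mean log2(CPM + 0.5) of 4 marker lists in the same libraries, with the vertical line between WT and KO. Ptgs2, Ptges and the neutrophil list are highest in WT 1 and lowest in WT 3, whereas Alox5 and Alox5ap are highest in WT 2 and KO 2 with the macrophage list.

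*Ptgs1* was most like *Cd207*, the marker of Langerhans cells (r = 0.941), and the epidermal phospholipase *Pla2g2f* (r = 0.926). *Hpgd* was most like *Alox12b* and *Dsc3* (r = 0.936 and 0.924), both genes of the epidermis, and *Ptgis* was most like *Ivl* and *Aloxe3* (r = 0.970 and 0.854), which are genes of its outer layers. *Ptger4* was most like *Ppbp* of platelets and *Vwf* of endothelium (r = 0.913 and 0.906). *Ptgds*, with 1 to 9 reads per library, gave *Mc5r* and *Mertk* (r = 0.961 and 0.941), and nothing can be read from so few reads. *Ptger3* was most like *Dpep2* (r = 0.961), a dipeptidase of the leukotriene branch.

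The rest of the eicosanoid pathway was then counted from a wider list of 67 genes, of which 59 were in the table and 52 were tested. With limma, 2 were lower and 2 were higher in KO at an unadjusted p below 0.05, or 7.69% of the 52 beside 2.88% of all genes tested, and 0 passed the adjustment. Of the 52 genes, 30 had a lower and 22 a higher value in KO, beside 8106 lower and 6200 higher of all 14306 genes tested. The median log2 fold change of the 52 was -0.05, beside -0.03 for all genes. The KO values lay wholly below the WT values in 2 and wholly above them in 5, or 13.5% in either direction beside 7.84% of all genes. The list as a whole was not tested.

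The group of other prostanoid receptors held 7 genes, among them *Ptgfrn*, which is not itself a prostanoid receptor. Of these 4 were tested and 1 was lower at an unadjusted p below 0.05, beside 1.82% of all genes. This was *Ptgfr* (chromosome 3, 151798610 to 151837528, minus strand), the receptor for prostaglandin F. It stood at 12.6, 22.4 and 18.3 CPM in WT 1, WT 2 and WT 3 and at 5.61, 10.9 and 9.40 CPM in KO 1, KO 2 and KO 3. The highest KO library lay below the lowest WT library, with a WT mean of 17.8 ± 4.92 CPM and a KO mean of 8.65 ± 2.74 CPM. The limma log2 fold change of *Ptgfr* was -1.01 (SE 0.31, 95% interval -1.72 to -0.30, unadjusted p = 0.0113, adjusted p = 0.998), so the adjustment was not passed. Its unadjusted p was below 0.05 in all 18 fits, the first and its 17 alternatives. *Ptgfr* is also in a listing of genes that the study drew from the same libraries, so that listing is no independent evidence. The gene of highest CPM in this group was *Ptgfrn*, a membrane protein that binds that receptor, with a WT mean of 270.0 ± 63.9 CPM and a KO mean of 276 ± 16.0 CPM. Its limma log2 fold change was 0.06 (95% interval -0.35 to 0.46, unadjusted p = 0.747, adjusted p = 0.998).

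Among the phospholipases, which supply arachidonic acid, 16 were tested and 1 was higher at an unadjusted p below 0.05, beside 1.06% of all genes. *Pla2g4f*, another cytosolic phospholipase, stood at 51.6, 59.4 and 42.4 CPM in WT 1, WT 2 and WT 3 and at 71.9, 60.2 and 79.9 CPM in KO 1, KO 2 and KO 3. The groups did not overlap, though WT 2 and KO 2 were close. The limma log2 fold change of *Pla2g4f* was 0.47 (SE 0.16, 95% interval 0.09 to 0.85, unadjusted p = 0.0218, adjusted p = 0.998). Its unadjusted p was below 0.05 in 15 of 18 fits, and limma gave an unadjusted p of 0.0653 without WT 3, 0.0577 without KO 1 and 0.0824 without KO 3. *Pla2g2f*, the phospholipase of highest CPM, had a WT mean of 412 ± 68.3 CPM and a KO mean of 485 ± 87.1 CPM, with overlapping groups (limma log2 fold change 0.23, 95% interval -0.17 to 0.63, unadjusted p = 0.218, adjusted p = 0.998). The 9 keratinocyte markers summed to 23476 to 34331 CPM in WT and to 29525 to 42151 CPM in KO, and the part of keratinocytes in these 2 genes was not tested.

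Of 8 further prostanoid synthesis genes tested, 6 had a lower and 2 a higher value in KO and 0 reached an unadjusted p below 0.05 (limma, smallest unadjusted p 0.0976, with an adjusted p of 0.998). *Ptges3*, the cytosolic prostaglandin E synthase and a cochaperone, was highest in CPM, at a WT mean of 108 ± 5.72 CPM and a KO mean of 101 ± 20.5 CPM. Transport and breakdown held 5 tested genes. Of the 5, *Zadh2*, known as prostaglandin reductase 3, was higher at an unadjusted p below 0.05, beside 1.06% of all genes. It stood at 48.4, 48.6 and 57.2 CPM in WT 1, WT 2 and WT 3 and at 60.8, 65.9 and 60.5 CPM in KO 1, KO 2 and KO 3. The groups did not overlap, and the limma log2 fold change of *Zadh2* was 0.28 (SE 0.12, 95% interval 0.01 to 0.55, unadjusted p = 0.0455, adjusted p = 0.998). Its unadjusted p was below 0.05 in 9 of 18 fits, and it was above 0.05 without any 1 library other than WT 3, without the variance trend, with voom, with a replicate block and with the hair follicle score, where limma gave its highest unadjusted p of 0.139. *Slco2a1*, the importer that brings prostaglandins to *Hpgd* inside cells, had a WT mean of 127 ± 15.2 CPM and a KO mean of 138 ± 17.0 CPM and overlapping groups.

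In the leukotriene branch beyond *Alox5* and *Alox5ap*, 9 enzymes were tested, with 7 lower and 2 higher values. Their median log2 fold change was -0.28, beside -0.03 over all genes. Of the 9, 1 was lower at an unadjusted p below 0.05, beside 1.82% of all genes. *Dpep1*, a dipeptidase that turns leukotriene D into leukotriene E, stood at 15.2, 24.4 and 27.9 CPM in WT 1, WT 2 and WT 3 and at 11.2, 17.4 and 12.0 CPM in KO 1, KO 2 and KO 3. KO 2 lay above WT 1, so the groups overlapped, and the limma log2 fold change of *Dpep1* was -0.69 (SE 0.27, 95% interval -1.32 to -0.07, unadjusted p = 0.0338, adjusted p = 0.998). Its unadjusted p was below 0.05 in 14 of 18 fits, and without WT 2, WT 3, KO 1 or KO 3 limma gave *Dpep1* an unadjusted p of 0.0957 to 0.104. *Lta4h*, which makes leukotriene B and had the highest CPM of these enzymes, had a WT mean of 39.7 ± 3.29 CPM and a KO mean of 37.8 ± 2.42 CPM. Of 3 leukotriene receptors tested, 0 reached an unadjusted p below 0.05, and that of highest CPM, *Ltb4r2*, had a WT mean of 20.7 ± 6.16 CPM and a KO mean of 24.5 ± 1.46 CPM. Other lipoxygenases and genes of resolution gave 7 tested genes and 0 at an unadjusted p below 0.05. *Anxa1*, the annexin that restrains phospholipases and neutrophil entry, led these at a WT mean of 515 ± 54.8 CPM and a KO mean of 446 ± 66.3 CPM.

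**Figure D5:**
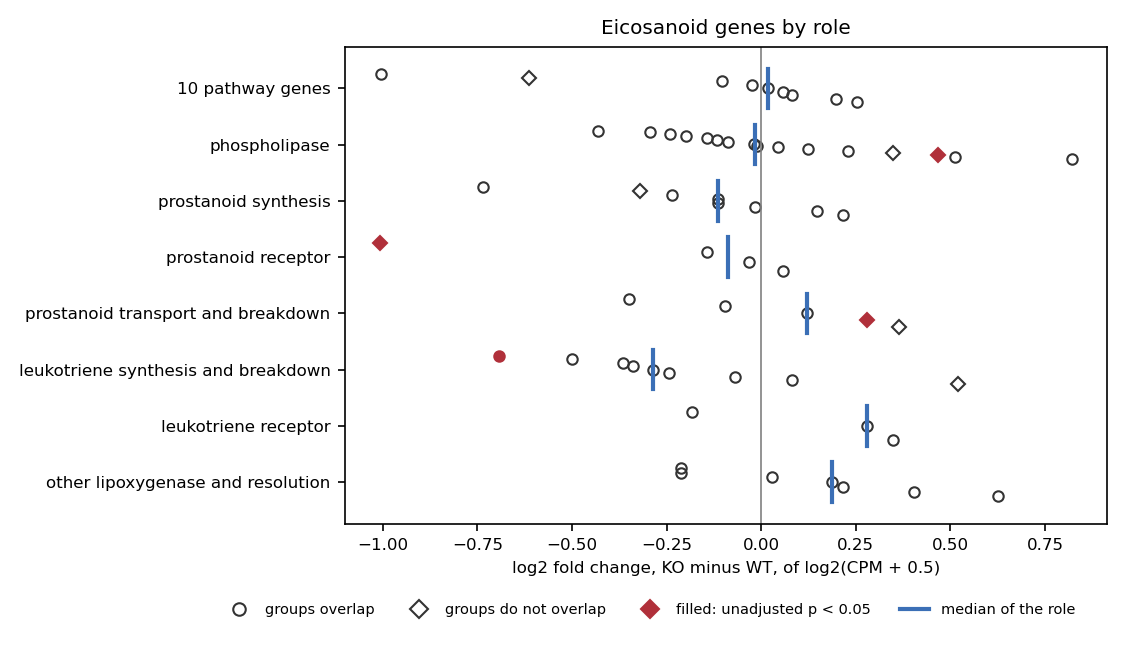
Log2 fold change of KO minus WT for the 9 tested pathway genes and the 52 tested genes of the wider list by role, with each symbol 1 gene, diamonds where the groups do not overlap, filled symbols at an unadjusted p below 0.05 and a blue line at the median of the role. Filled symbols are Ptgfr and Dpep1 on the left and Pla2g4f and Zadh2 on the right, and there is none in the top line of pathway genes.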

How the data were processed

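Total RNA of 1 ear punch per mouse was sequenced with TruSeq libraries on an Illumina HiSeq instrument with paired ends (WT, n = 3; KO, n = 3). The authors trimmed the reads, aligned them to mm10 with STAR 2.7.3a, quantified Ensembl transcripts in Partek Flow by expectation-maximization, which can split a read among genes, summed them per gene, divided by the library total and added an offset of 0.0001. The deposited values are thus counts scaled to a fixed library total (CPM), and the offset was subtracted here. The authors' model for the skin comparison and their use of read strand are not given in the sources used here. No pathway gene or named gene of the wider list overlaps another gene of the table.

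Groups and replicate numbers were taken from the labels. The CPM of a single read was recovered from the lowest values, and 91.6% to 92.7% of the values under 20 reads lay within 0.1 of a whole read. Read numbers are therefore estimates, and no count model was used. Intervals from reads cover counting error only.

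KO was compared with WT by limma 3.58.1 under R 4.3.3 (functions lmFit and eBayes, variance trend on) on log2(CPM + 0.5), two-sided and without covariates, for the 14306 genes averaging 1 CPM or more. The other 1361 genes were not tested. Benjamini-Hochberg adjustment ran over all genes tested, and genes at an unadjusted p below 0.05 were also counted. Fold changes on this scale understate those of low genes. The limma script was first tested on simulated libraries. Exact permutation tests used scipy 1.17.1. A score is the mean log2(CPM + 0.5) of the markers of a list. Promoter sequences came from RefSeq and exon lengths from GENCODE M21.

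The 10 genes, the wider list and the marker lists were chosen with earlier results of these data known, so no p was adjusted over a list alone. Named are the 10 genes, the genes of the wider list at an unadjusted p below 0.05, the gene of highest mean CPM in each role, and for each pathway gene the 2 listed genes of highest Pearson r. *Adipoq*, as the deleted gene, was named outside this rule. Of the wider list, *Pla2g2a*, *Pla2g2c*, *Pla2g10*, *Pla2g12b*, *Ptgdr2*, *Dpep3*, *Cysltr2* and *Oxgr1* were not analysed here. The marker lists of Langerhans and dendritic cells, fibroblast, endothelium, skeletal muscle, smooth muscle and T cells served only the search for genes of like pattern. A total of 17 alternatives were run, which changed the pseudocount, the filter, the scaling, the variance model, the covariates, a replicate block or the libraries.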

Additional observations from a re-analysis of the deposited data

How the results depend on the processing

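With limma, 0 of the 10 pathway genes passed the adjustment under any of the 17 alternatives. The number at an unadjusted p below 0.05, 0 at first, was 1 without the variance trend and with limma voom on recovered reads (*Ptger3* in both), 2 with the neutrophil score (*Ptgs2* and *Ptges*), 2 with the hair follicle score (*Ptgs1* and *Ptges*), and 0 to 1 when each library was left out in turn. The direction of *Ptgs1* and *Ptger3* was kept under every alternative that tested them, while the filter at 5 CPM dropped *Ptger3*. Leaving out 1 library at a time gave log2 fold changes of -2.20 to 0.18 for *Ptgs2*, -0.29 to 0.70 for *Ptges*, -0.0067 to 0.22 for *Ptgis*, -0.29 to 0.082 for *Hpgd*, -0.070 to 0.26 for *Ptger4*, -0.12 to 0.22 for *Alox5*, -0.25 to 0.22 for *Alox5ap*, -0.14 to 0.21 for *Ptgfrn* and -0.26 to 0.037 for *Ptges3*. Signs also turned with the hair follicle score for *Ptgs2* (0.032), *Hpgd* (0.061), *Ptger4* (-0.072) and *Alox5ap* (0.12). They turned with voom for *Ptger4* (-0.015) and *Alox5* (-0.0051), and for *Alox5ap* with median-of-ratios rescaling (0.0038), quantile normalization (0.027) and the neutrophil score (0.0013). Of the single-gene values 313 kept their direction and 26 changed sign, and 0 reached a limma adjusted p below 0.05. Without the filter *Ptgds* entered at -0.24 (limma, unadjusted p = 0.621, adjusted p = 0.999). The causes were not tested.

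In the wider list, 4 genes were higher at an unadjusted p below 0.05 with quantile normalization and 4 with the hair follicle score, and leaving out a library gave 1 to 4 lower and 0 to 3 higher genes. Over all genes, 260 were lower and 152 higher at an unadjusted p below 0.05, and 2 passed the adjustment. There were 193 lower and 232 higher genes with quantile normalization, 215 lower and 210 higher with median-of-ratios rescaling, 428 lower and 257 higher with the neutrophil score, and 575 lower and 307 higher with the hair follicle score, where 9 passed the adjustment. With voom 1 passed. Leaving out a library gave 147 to 390 lower, 89 to 320 higher and 0 to 16 adjusted genes, with 0 without WT 2 and 16 without WT 3. The labels do not say whether same-numbered mice were paired. The deviations of same-numbered libraries from their group means correlated at 0.376, -0.306 and -0.222. Of the WT libraries only WT 1 correlated best with its own number. With 3 libraries per group, these values cannot decide whether the mice were paired. A replicate block gave 414 lower and 177 higher genes, and 0 of the 10 pathway genes at an unadjusted p below 0.05. Depth limits *Ptgds* and *Ptger3*, which had 1 to 34 reads per library.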
